A study of Mus musculus with 6 samples.

Results

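The aryl hydrocarbon receptor (AHR) and its targets were followed in sorted epithelial cells of the mouse colon. The 7 genes are Ahr, its partner Arnt, and the targets Tiparp, Ahrr, Cyp1a1, Cyp1a2 and Cyp1b1, of 19938 genes with a probe set of their own on the array. The list was given by name, with earlier results of these data known, and each gene had exactly 1 probe set, so no choice between probe sets was needed. Each of 6 samples was read on its own Affymetrix array. In 3 samples the cells came from wild-type male BALB/c mice, aged 6 weeks, that fasted for 36 h and were then re-fed for 24 h with antibiotics (called antibiotics). The other 3 samples came from the same kind of mice, fasted and re-fed in the same way with no antibiotics (re-fed). The antibiotics are not named in the sources used here, and mice that were only fasted, or never fasted, were not analysed here. The cells were sorted as positive for EpCAM, an epithelial surface protein, and negative for CD45, the leukocyte antigen. How many mice each sample holds is not given in the sources used here, so p-values measure the spread between these samples.

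AHR is a transcription factor of the bHLH-PAS family that sits in the cytosol with chaperones until a ligand binds it. It then enters the nucleus, pairs with ARNT and binds DNA at xenobiotic response elements, whose core letters are GCGTG. In the gut its ligands include plant compounds from food and tryptophan products made by bacteria or by host enzymes, and enzymes of the CYP1 family break many of them down. AHRR and TIPARP are induced by the receptor and restrain it in turn.

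Of the 7 genes, 3 were bright enough to be tested between antibiotics and re-fed samples, and 0 of these passed. Ahr, Arnt and Tiparp were measured well above the dimmest signals, and their differences lay between -0.14 and 0.068 on the log2 scale. Ahrr, Cyp1a1, Cyp1a2 and Cyp1b1 stayed under the floor used for dim signal in both groups. That floor is the 40th percentile of the mean signals of all probe sets with a gene, 5.81 on the log2 scale. All values below are log2 expression after quantile normalisation unless stated, and every difference is antibiotics minus re-fed.

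**Figure D1:**
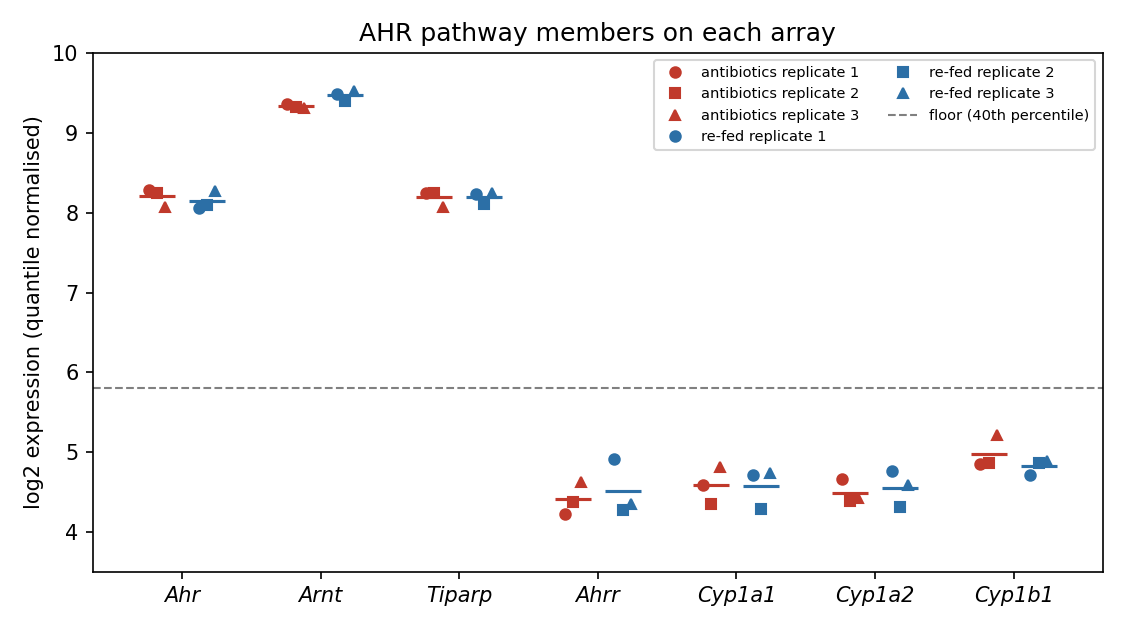
Log2 expression (vertical axis) of the 7 genes on each of the 6 arrays, antibiotics left of re-fed for each gene. Points are arrays, short lines are group means and the dashed line is the floor at 5.81. Ahr, Arnt and Tiparp lie above the floor on every array and the other 4 genes lie under it on every array.

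Ahr, the receptor itself, had 8.29, 8.25 and 8.07 in antibiotics replicates 1 to 3, against 8.06, 8.09 and 8.27 in re-fed replicates 1 to 3. Each group held both lower and higher arrays, and the groups overlapped over nearly their whole range. The means were 8.20 ± 0.12 with antibiotics and 8.14 ± 0.11 in re-fed samples (SD, n = 3 each). The difference was 0.068 (SE 0.11, limma adjusted p = 0.838), with a 95% interval of the fold change (antibiotics over re-fed) from 0.881 to 1.25. The mean over 6 arrays lay at percentile 75.7 of the probe-set means. The sign depended on the scaling. With the deposited values as they stand the difference was -0.11, where the median over all genes tested was itself -0.12, so that Ahr lay 0.0098 above that median.

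Arnt encodes the partner that AHR needs to bind DNA, which also pairs with the hypoxia factors. It had 9.36, 9.32 and 9.31 with antibiotics, against 9.49, 9.40 and 9.52 in re-fed samples. All 3 antibiotics values lay under all 3 re-fed values, and the nearest arrays stood at 9.36 with antibiotics and 9.40 in re-fed samples. The means were 9.33 ± 0.027 with antibiotics and 9.47 ± 0.061 in re-fed samples (SD, n = 3 each), a difference of -0.14 (SE 0.096, limma adjusted p = 0.58). The 95% interval of the fold change (antibiotics over re-fed) was 0.782 to 1.06. Such a separation of the groups held for 19.6% of the 12071 genes tested, and for 10.7% with the antibiotics values lower, so 1 of 3 members above the floor is no result about the members. Of the 3 members above the floor, Arnt alone kept its sign in all 15 alternative settings, from -0.32 to -0.10. With the deposited values it lay 0.21 below the median of all genes tested, a difference of -0.32 (adjusted p = 1).

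Tiparp (also called PARP7) adds single ADP-ribose units to AHR and lowers its activity. It had 8.25, 8.25 and 8.07 with antibiotics, against 8.23, 8.11 and 8.25 in re-fed samples. The 2 groups covered almost the same range, with antibiotics replicate 3 as the lowest array. The means were 8.19 ± 0.10 with antibiotics and 8.20 ± 0.080 in re-fed samples (SD, n = 3 each), a difference of -0.0082 (SE 0.11, limma adjusted p = 0.985). The 95% interval of the fold change was 0.844 to 1.17. Of the genes tested, 3.78% had a smaller difference in size than Tiparp, and its sign turned in 5 of the 15 alternative settings.

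Ahrr, the repressor that competes with AHR for ARNT, had 4.23, 4.37 and 4.63 with antibiotics, against 4.91, 4.27 and 4.35 in re-fed samples. Re-fed replicate 1 was the highest array and antibiotics replicate 1 the lowest, and the groups overlapped. Ahrr lay at percentile 14.6 of the probe-set means.

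Cyp1a1 encodes the cytochrome P450 best known as the readout of AHR activity. It had 4.59, 4.35 and 4.82 with antibiotics, against 4.71, 4.29 and 4.74 in re-fed samples. Each group held 1 lower array, replicate 2 in both, and the means were 4.59 ± 0.23 with antibiotics and 4.58 ± 0.25 in re-fed samples (SD, n = 3 each). Its percentile among the probe-set means was 16.4.

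Cyp1a2 encodes a related enzyme that is abundant in liver, and its gene lies head to head with Cyp1a1 on mouse chromosome 9, with 13958 bases between their start sites in GRCm38.p6. It had 4.66, 4.39 and 4.42 with antibiotics, against 4.76, 4.31 and 4.59 in re-fed samples, at percentile 15.4. Cyp1b1 encodes the CYP1 enzyme found mostly outside the liver. It had 4.85, 4.86 and 5.21 with antibiotics, against 4.72, 4.86 and 4.89 in re-fed samples, at percentile 21.7. Both genes had overlapping groups, and antibiotics replicate 3 was the highest array for Cyp1b1.

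The test left these 4 genes out because they were dim. When all genes were kept, the differences were -0.10 for Ahrr, 0.0042 for Cyp1a1, -0.063 for Cyp1a2 and 0.15 for Cyp1b1, with limma adjusted p from 0.782 to 0.998. The 95% interval for Cyp1a1 ran from -0.36 to 0.37 on the log2 scale. These intervals cover the measured signal. The deposited values carry no detection call, so a change in RNA levels that stay under the background of the array would not be detectable here, and a value under the floor is not shown to be an absence.

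**Figure D2:**
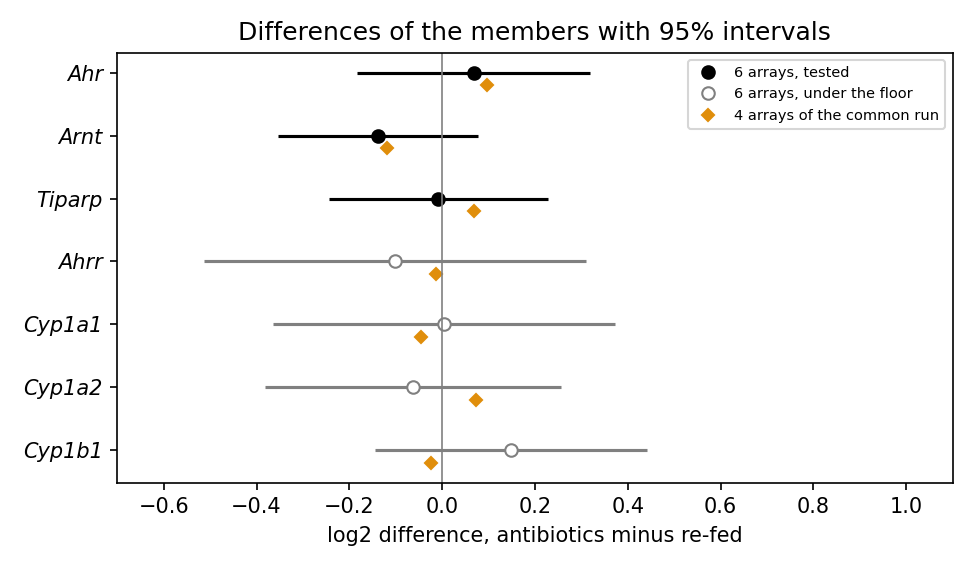
Log2 difference (horizontal axis, antibiotics minus re-fed) of each of the 7 genes, with 95% intervals from limma as lines. Filled circles are the 3 tested genes and open circles the 4 genes under the floor (fitted with all genes kept). Diamonds are the difference over the 4 arrays that share the most identical values (called the common run). All 7 intervals include 0.

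Of the 3 members tested, 0 passed limma's test at an adjusted p under 0.05, where 0.058% of all genes tested passed (7 of 12071). At an unadjusted p under 0.05 the count was also 0, where 12.6% of all genes tested had such a p. The deposited values of 4 arrays (antibiotics replicates 1 and 2, re-fed replicates 2 and 3) share 372 to 435 identical values per pair. Any pair with another array shares at most 198. The 4 arrays are called the common run here, a grouping inferred from these shared values alone. Whether they were processed together was not tested. Within these 4 arrays the differences were 0.096 for Ahr, -0.12 for Arnt and 0.069 for Tiparp, with adjusted p from 0.587 to 0.772. There 0.447% of all genes tested passed and 0 of the 3 members did. The sign of Cyp1b1 turned there as well, to -0.023, as did those of Cyp1a1 (-0.046) and Cyp1a2 (0.074), and Ahrr stood at -0.013.

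The region around the start site of 6 of the 7 genes was available from RefSeq (GRCm38.p6), as 250 bases before and 50 bases after the start. The entry for Ahr was not among them. The letters GCGTG, read on both strands (CACGC on the other), occurred at least once in the windows of Ahrr, Arnt, Cyp1a1, Cyp1b1 and Tiparp and did not occur in that of Cyp1a2. Of 32851 promoter windows of this length, 32.4% hold them at least once. Ahrr held 3 matches, which 3.91% of windows reach, and 1 of them extends to TNGCGTG, which occurs in 5.07% of windows. The 3 windows below are shown because they set a target above the floor, Tiparp, beside 2 targets under it, Ahrr and Cyp1a1. Capitals mark GCGTG or CACGC, and each is read from 5′ to 3′ on the strand of its gene.
Tiparp promoter, chr3:65528197-65528496, + strand: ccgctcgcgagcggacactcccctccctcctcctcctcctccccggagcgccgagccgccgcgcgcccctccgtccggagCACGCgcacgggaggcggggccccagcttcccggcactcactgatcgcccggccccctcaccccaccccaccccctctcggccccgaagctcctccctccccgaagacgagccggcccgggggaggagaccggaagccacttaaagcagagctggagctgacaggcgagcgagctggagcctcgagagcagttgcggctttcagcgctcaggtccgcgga
Ahrr promoter, chr13:74292282-74292581, - strand: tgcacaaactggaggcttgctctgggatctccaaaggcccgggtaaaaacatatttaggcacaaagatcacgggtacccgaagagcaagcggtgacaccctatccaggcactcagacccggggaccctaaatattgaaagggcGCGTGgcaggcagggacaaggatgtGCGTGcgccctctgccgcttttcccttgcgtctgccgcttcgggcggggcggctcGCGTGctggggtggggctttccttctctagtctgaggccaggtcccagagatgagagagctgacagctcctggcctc
Cyp1a1 promoter, chr9:57697363-57697662, + strand: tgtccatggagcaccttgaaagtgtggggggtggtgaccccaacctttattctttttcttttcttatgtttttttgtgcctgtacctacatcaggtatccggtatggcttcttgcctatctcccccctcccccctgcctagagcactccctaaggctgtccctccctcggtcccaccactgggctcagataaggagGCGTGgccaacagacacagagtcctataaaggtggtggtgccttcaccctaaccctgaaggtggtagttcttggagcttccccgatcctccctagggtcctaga
The match in Tiparp begins 170 bases before the start site and that in Cyp1a1 54 bases before it, while those in Ahrr begin 107, 82 and 27 bases before it. A match is a run of letters and not a measured binding site, and bases outside these windows were not searched for any gene. Tiparp, with 1 match, was above the floor, and Ahrr, with 3, was under it. The Tiparp window holds 34 CG pairs, that of Ahrr 17 and that of Cyp1a1 4.

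Genes around the receptor were described by 6 lists, given by counts and medians beside the median over all genes tested (0.0033). Of 54 list genes tested, 0 passed limma's test over all genes. An unadjusted limma p under 0.05 was found for 12 of the 54, a larger share than over all genes tested (12.6%, 1524 of 12071). The lists were chosen with earlier results of these data known, and the larger share was not tested. In each list, up to 3 tested genes were named by smallest unadjusted p, which favours genes whose groups do not overlap. Genes other than the members that AHR is known to regulate went both ways, with 5 of 8 tested above 0 and a median of 0.036. In the common run the median was 0.17, where that of all genes tested was 0.012. Xdh, xanthine dehydrogenase of purine breakdown, had 9.72, 10.2 and 9.84 with antibiotics, against 9.28, 9.34 and 9.46 in re-fed samples. All its antibiotics values lay above all its re-fed values (0.56, SE 0.14, limma adjusted p = 0.177). Slc7a5, which imports tryptophan and other large amino acids, had 7.72, 7.49 and 7.72 with antibiotics, against 7.58, 7.20 and 7.06 in re-fed samples (0.37, adjusted p = 0.354). Nqo1, the quinone reductase that AHR shares with NRF2, had 6.65, 6.34 and 6.04 with antibiotics, against 6.46, 6.88 and 6.95 in re-fed samples (-0.42, adjusted p = 0.38), a difference of -0.27 without antibiotics replicate 3. Both genes overlapped between the groups. Cyp2s1, another P450 that AHR induces, averaged 10.86 in both groups. Aldh3a1, an aldehyde dehydrogenase of the classical AHR gene battery, lay under the floor like the CYP1 genes.

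The genes of the complex that holds AHR and of its coregulators centred on 0, with a median of -0.014 over 12 tested, 7 below 0 and 5 above. The chaperone Hsp90aa1 differed by -0.011 and the co-chaperone Ptges3 by 0.011. Cul4b, a scaffold of ubiquitin ligases that can include AHR, had 6.70, 6.63 and 6.72 with antibiotics, against 7.0, 7.09 and 7.10 in re-fed samples. Its groups did not overlap (-0.39, SE 0.096, limma adjusted p = 0.185). The nuclear export receptor Xpo1 differed by -0.25 (adjusted p = 0.422, and -0.16 without re-fed replicate 1) and the coactivator Ncoa3 by -0.16 (adjusted p = 0.563).

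Of the other bHLH-PAS genes, the family to which Ahr, Ahrr and Arnt belong, 7 were tested, 5 above 0 and 2 below, with a median of 0.22. Hif3a, a hypoxia factor that can inhibit the others, had 6.27, 6.35 and 6.36 with antibiotics, against 5.86, 5.94 and 5.78 in re-fed samples. Hif1a, the main hypoxia factor and a partner of ARNT, had 11.04, 10.95 and 10.88 with antibiotics, against 11.25, 11.24 and 11.37 in re-fed samples. Both separated the groups, in opposite directions, with differences of 0.47 (adjusted p = 0.127) and -0.33 (adjusted p = 0.259). They were the 2 of 7 tested whose groups did not overlap, where 19.6% of all genes tested separate. Both had been named for a small unadjusted p. Hif3a was near the floor of 5.81 in re-fed samples, with a mean of 5.86 and replicate 3 under it at 5.78. The clock gene Arntl differed by 0.33 (adjusted p = 0.376), and by 0.21 without antibiotics replicate 2.

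Enzymes that make AHR ligands from tryptophan, or that use tryptophan otherwise, were mostly dim. Of 13 with a probe set of their own, 6 were above the floor by their mean over 6 arrays. Those under it were Ido1, Ido2, Tdo2, Kmo, Kynu, Aadat and Acmsd. The median of the 6 was 0.046 over 6 arrays and 0.0095 in the common run. Ido1, which opens the kynurenine pathway and is induced by interferon, was singled out after its values were seen. It had 5.39, 5.12 and 5.17 with antibiotics, against 5.39, 6.55 and 6.45 in re-fed samples. Its mean was under the floor with antibiotics (5.23) and above it in re-fed samples (6.13), and re-fed replicate 1 stood with the antibiotics arrays, so that the groups overlapped. With all genes kept its difference was -0.90 (SE 0.27, limma adjusted p = 0.44), from -1.27 without re-fed replicate 1 to -0.69 without re-fed replicate 2, and it was -1.24 in the common run. Tph1, the first enzyme of serotonin synthesis in enteroendocrine cells, had 6.51, 6.27 and 6.72 with antibiotics, against 6.87, 6.94 and 7.07 in re-fed samples. Its groups did not overlap (-0.46, SE 0.13, limma adjusted p = 0.231). Kyat3, a kynurenine aminotransferase, differed by -0.11 (adjusted p = 0.689), and Haao, which acts late in the pathway to NAD, by 0.15 (adjusted p = 0.69). The Haao mean was above the floor with antibiotics (5.89) and under it in re-fed samples (5.75), so Haao was tested only through its antibiotics values. Leaving out 1 array moved Haao between 0.058 and 0.25.

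The PARP family, to which Tiparp belongs, had 10 of 12 tested genes below 0 and a median of -0.16, while Tiparp itself stood at -0.0082. Over all genes tested, 49.3% were below 0. The groups did not overlap in 5 of the 12, where 19.6% of all genes tested separate in this way. This was the highest count of the 6 lists. It was 2 of 8 for the AHR-responsive genes and 1 of 12 for the chaperones and coregulators. For the other bHLH-PAS genes it was 2 of 7, for the tryptophan enzymes 1 of 6 and for the electron and haem genes 2 of 9. Parp3, which acts in DNA repair, had 8.22, 8.18 and 8.19 with antibiotics, against 8.53, 8.52 and 8.36 in re-fed samples (-0.27, adjusted p = 0.316). Parp12, an interferon-induced member, differed by -0.27 (adjusted p = 0.436), and by -0.13 without antibiotics replicate 1. Parp1, the main DNA damage sensor, stood the other way at 0.31 (adjusted p = 0.378), and at 0.12 in the common run.

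Among genes that supply P450 enzymes with electrons or haem, 6 of 9 tested were below 0, with a median of -0.054, and of -0.13 in the common run. Alas1, the first enzyme of haem synthesis, had 10.36, 10.23 and 10.27 with antibiotics, against 10.68, 10.82 and 10.95 in re-fed samples. The groups were well apart (-0.53, SE 0.11), and the limma adjusted p was 0.117. Urod, a later enzyme of haem synthesis, differed by -0.30 (adjusted p = 0.387), and by -0.18 without antibiotics replicate 2. Hmox1, which breaks haem down, differed by -0.44 (SE 0.30, adjusted p = 0.576), and antibiotics replicate 3 was its lowest array at 5.23. Without that array its difference was -0.046, and in the common run it was -0.22. The electron carriers Cyb5a, Cyb5b and Cyb5r3 differed by -0.067, -0.021 and 0.024.

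**Figure D3:**
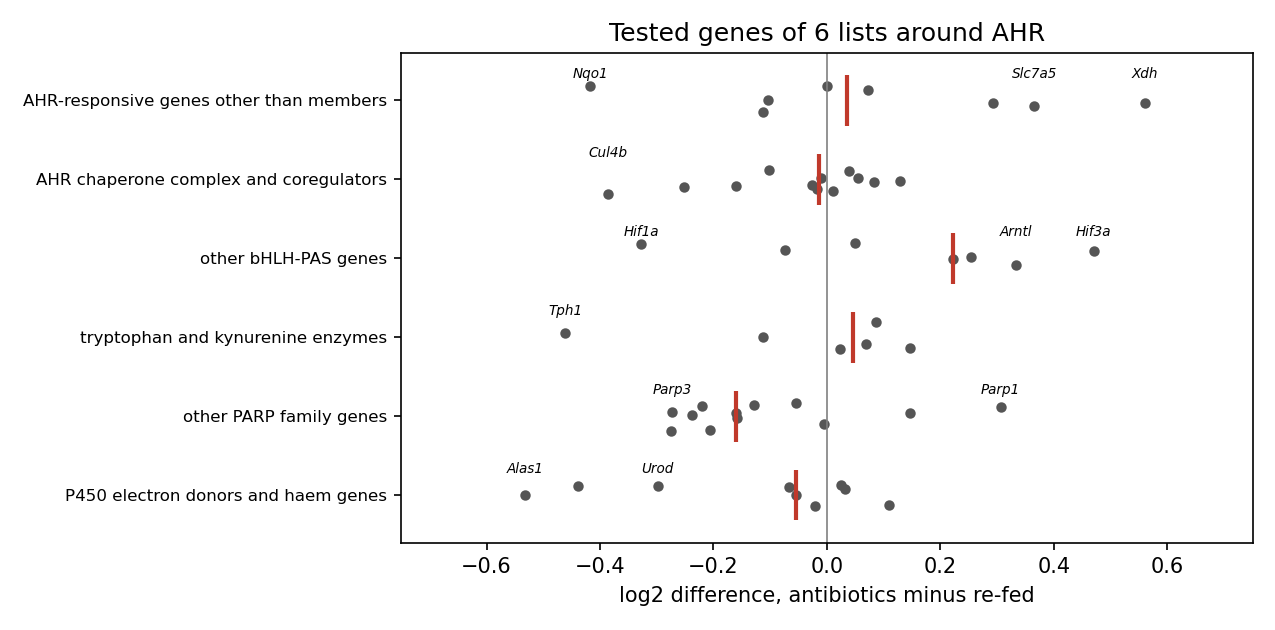
Log2 difference (horizontal axis, antibiotics minus re-fed) of each tested gene in the 6 lists, 1 point a gene, spread up and down within a list so that points can be told apart. Vertical bars are list medians, from -0.16 in the PARP family to 0.22 in the other bHLH-PAS genes, and genes with an unadjusted limma p under 0.05 are named. No gene shown passed over all genes tested.

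By the pattern over the 6 arrays, the genes most like Ahr were Cep131, Sall4, 2510039O18Rik, Epg5 and Tlr9, with Pearson correlations from 0.988 to 0.995. The genes most like Cyp1a1 were Elovl7, Odf4, Tmem72, Pkd1l3 and Kbtbd12, with correlations from 0.973 to 0.983, and of these only Elovl7 was above the floor. These describe 6 points that share 1 normalisation, picked as the highest of 12070 and 19937 genes.

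All 10 markers of colonic epithelium were above the floor, and Ptprc, which encodes CD45, was under it. The mean over the 10 markers was 12.40 to 12.46 with antibiotics and 12.56 to 12.60 in re-fed samples. Every antibiotics array thus lay under every re-fed array, while 0 of the 10 markers passed limma's test. Of 6 small intestine markers, 2 (Lct and Apoa4) were above the floor. The mean of that list was 4.88 to 4.99 with antibiotics and 4.87 to 4.99 in re-fed samples. Of 7 leukocyte markers measured, 2 (Cd3e and Cd68) were above the floor, and the list mean was 5.46 to 5.6 with antibiotics and 5.47 to 5.56 in re-fed samples. Of 8 markers of stroma and endothelium, which can also express Ahr and Cyp1b1, 6 were above it, with a list mean of 6.32 to 6.49 with antibiotics and 6.30 to 6.43 in re-fed samples. The part of these cells in the values above was not tested. In sorted bulk cells, fewer cells of a type and less RNA per cell cannot be told apart.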

How the data were processed

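Biotin-labelled cRNA from 6 µg of total RNA was read on Affymetrix arrays, as the labels' protocols state. The deposited table holds log2 expression of 35557 probe sets, made by the authors with RMA (version not given in the sources used here), per the submitters' processing notes. Array medians were 6.17, 6.16 and 5.63 in antibiotics replicates 1 to 3 and 5.87, 6.06 and 6.08 in re-fed replicates 1 to 3. Quantile normalisation was therefore applied to the 23410 probe sets that the platform table assigns to genes, of which 21789 name 1 gene. The common run was inferred from identical values: its 4 arrays share 372 to 435 values per pair, and any pair with another array at most 198. Antibiotics replicate 3 holds 10829 distinct values and the other arrays 34568 to 34596, so its pairs have fewer values to share. Why it differs was not tested.

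Each of 19938 genes was represented by its brightest probe set. Genes under the 40th percentile were left out, and 12071 were tested with limma 3.58.1 in R 4.3.3 (two-sided, Benjamini-Hochberg adjustment, threshold 0.05). The number of arrays limits the precision.

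Named genes were the 7 members, up to 3 genes per list by smallest unadjusted p, and the 5 genes most like Ahr and Cyp1a1. The members, lists and scaling were chosen with earlier results of these data known. A few other genes are named as background to a list, and Ido1 for its values. Ccbl1 and Ccbl2 were read as Kyat1 and Kyat3. List genes without a probe set of their own were not analysed here. The test was tried on simulated data with independent noise for each gene and array. Those data held no array or run effect, so the trial does not cover the unequal arrays here. Same-numbered replicates of the 2 groups were not treated as pairs in the main setting. Their deviations from the group means correlated at 0.021, -0.034 and -0.22, and those of differently numbered replicates from -0.17 to 0.24. With 3 arrays per group these values cannot decide whether the replicates are paired.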

Additional observations from a re-analysis of the deposited data

How the results depend on the processing

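In limma, 0 members passed in the main setting and in each of the 15 alternatives. The 1 unadjusted p under 0.05 among the members over all of these was that of Arnt (0.0319, adjusted p = 0.257) with median-centred scaling. The count of all genes that passed was 7. It was 45 with the deposited scaling, 62 with median-centred scaling, 2 with no filter on dim probe sets, 43 with the stricter filter, 54 in the common run and 1169 with array weights. With the deposited scaling in the common run, chosen after seeing the data, it was 63. Leaving out 1 replicate gave 0 to 11, and the 0, without antibiotics replicate 1, had 1040 genes at an unadjusted p under 0.05. Ahr turned to -0.11 with the deposited scaling, to -0.070 with median-centred scaling and to -0.012 with the deposited scaling in the common run. Tiparp turned to 0.069 in the common run and to 0.062 with array weights, and lay between -0.054 and 0.052 when 1 replicate was left out. The cause was not tested. With the replicate number as a block (replicate block), the differences were the same, 0.068 for Ahr, -0.14 for Arnt and -0.0082 for Tiparp, and 0 members passed. Array weights brought 7 of the 18 other named genes under the threshold (Xdh, Slc7a5, Cul4b, Hif3a, Tph1, Parp12 and Alas1). With these weights 1169 of all 12071 genes tested passed. The 18 genes had been picked by smallest unadjusted p in this same contrast, so their count is no result about the lists. The other 255 of 262 values of these genes over the alternatives kept their direction and side. The dim members have no call in the main setting, and 42 of their 44 values moved by less than the SD between replicates. Their signs still turned. Over the alternatives the difference ran from -0.22 to 0.099 for Ahrr and from -0.14 to 0.12 for Cyp1a1. It ran from -0.18 to 0.14 for Cyp1a2 and from -0.023 to 0.21 for Cyp1b1. Signal near the background limits what Ahrr and the CYP1 genes can show.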
